A study of Mus musculus with 4 samples.

Results

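The genes described here are 8 genes of ependymal cells and their motile cilia, Foxj1, Rsph1, Dynlrb2, Tmem212, Ccdc153, Ak7, Hydin and Dnah5, out of 17778 genes in the table of the study. They were taken from the table by gene symbol. The symbol matched for 7 of the genes, and Dnah5 was found under its older symbol Dnahc5 with the same gene identifier. Their mRNA was measured in the medial prefrontal cortex (mPFC) of C57BL/6 mice, named C57BL/6J in the methods of the study. By the methods, the mice of both groups were male and were juvenile when the experiment began, weeks before tissue was taken. The CUMS group (2 libraries) came from mice that had passed through chronic unpredictable mild stress (CUMS). This is a schedule of changing stressors such as a tilted or damp cage, restraint, noise and strobe light, together with social isolation. These mice had then shown depression-like behavior in sucrose preference, Y-maze and forced swimming tests. The control group (2 libraries) lived without these stressors and was tested in the same way. No allele or drug is named for either group. Only the stressed mice that met the criteria in every test were taken, so that the CUMS group stands for vulnerable mice and not for all stressed mice. The tissue was taken a day after the tests, and how many mice went into a library is not given in the sources used here.

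Ependymal cells line the brain ventricles, and each carries a tuft of motile cilia that moves the cerebrospinal fluid. The core of such a cilium, the axoneme, is a ring of microtubule doublets around a central pair. Outer and inner dynein arms on the doublets drive the beat, and radial spokes carry signals from the central pair to the arms. The transcription factor FOXJ1, together with factors of the RFX family, switches on the genes of this machine in cells that build motile cilia. Most neurons and astrocytes carry instead a single immotile primary cilium, which shares the transport system that builds cilia but has no dynein arms, spokes or central pair. The neocortex itself has no ependymal layer, and the nearest one lines the lateral ventricles below it.

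The table gave 1 mean per gene and group, in RPKM (reads of a gene, scaled to its length in kilobases and to all mapped reads), and no value for a single library. No difference below could therefore be set against the spread between mice, and none was tested. Each value is given with the fragments behind it, summed over the 2 libraries of the group as estimated from the table, and with a 95% interval that covers counting error only. By this estimate a control library held 8221909 fragments and a CUMS library 8287803, which is below the read numbers that the study states. If the libraries held more fragments, the intervals would be narrower. Among genes with an average of at least 0.5 RPKM over both groups the median log2 ratio of CUMS over control was -0.02, so the groups were on a common scale. Markers of excitatory neurons of the neocortex were abundant in both groups, as the tissue label says, with 635 RPKM in control and 791 RPKM in CUMS for the vesicular glutamate transporter gene Slc17a7.

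All 8 genes were detected in both groups, at low levels. The mean level was lower in CUMS in 6 of the 8 genes, namely Tmem212, Ccdc153, Ak7, Foxj1, Dynlrb2 and Rsph1, and was slightly higher in Hydin and Dnah5. Each of the 6 differed by more than 1.5 fold, the fold limit of the study, and 0 of the 8 genes were higher by that much. Over genes with 20 to 263 fragments, the range of these 8 genes, 13.8% were lower by over 1.5 fold and 9.31% were higher. Over genes with an average of at least 0.5 RPKM, most of which rest on far more fragments, these shares were 3.8% and 2.15%. The counting interval lay wholly below 0 in 4 of the genes, against 9.98% of genes with 20 to 263 fragments, and it lay wholly above 0 in 0 of them, against 6.4%. The 8 genes were chosen with earlier results of these data known, so these counts are no independent evidence. The median log2 ratio over the 8 genes was -0.89. Summed over the 8 genes, 432 fragments in control stood against 259 in CUMS, a log2 ratio of -0.75 (counting interval -0.98 to -0.52). In bulk tissue, fewer ependymal cells and less of these mRNAs per cell cannot be told apart. Nor can fewer such cells in the mice and less ventricular lining in the dissected tissue.

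**Figure D1:**
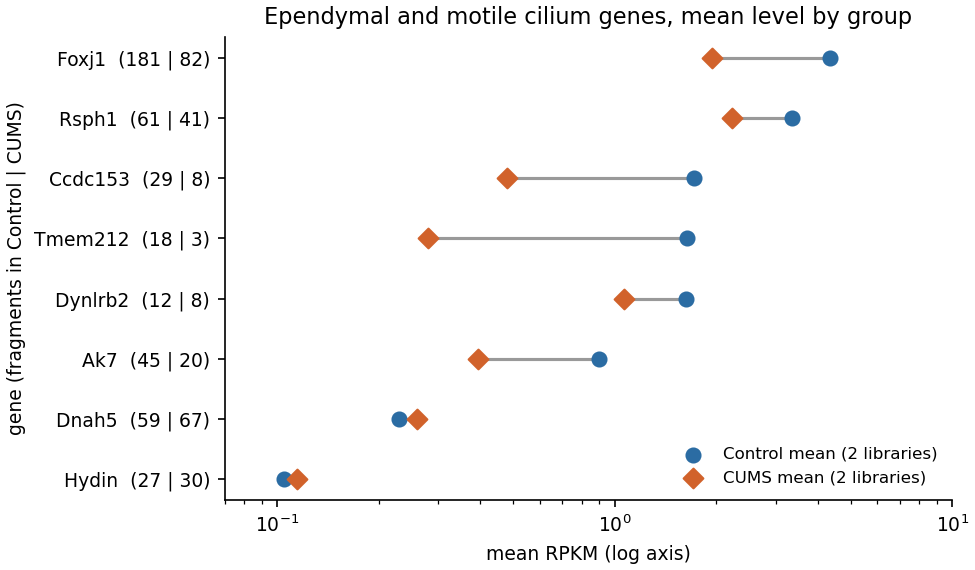
Mean RPKM of each gene (log axis) in control (circles) and CUMS (diamonds), each point the authors' mean over 2 libraries, with the estimated fragments of each group beside the gene. The CUMS point lies to the left of the control point in 6 genes and slightly to the right in Dnah5 and Hydin.

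In control the order of the levels, highest first, was Foxj1, Rsph1, Ccdc153, Tmem212, Dynlrb2, Ak7, Dnah5 and Hydin. The level of Foxj1 was 4.35 RPKM (counting interval 3.74 to 5.03) and that of Rsph1 3.365 RPKM (2.57 to 4.32), and these intervals overlap. Ccdc153, Tmem212 and Dynlrb2 lay between 1.63 and 1.72 RPKM and cannot be ranked at this depth. Dnah5 and Hydin, at 0.23 RPKM (0.175 to 0.297) and 0.105 RPKM (0.0692 to 0.153), stood below all the others. In CUMS, Rsph1 had the highest level and Foxj1 came next, again with overlapping intervals. Foxj1 was not a highly expressed gene, since 45.7% of all genes in the table had a lower control mean.

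The regulator comes first. Foxj1 (gene 15223, chromosome 11, 116330704 to 116335399, minus strand, GRCm38) encodes the forkhead transcription factor that commits a cell to motile cilia. Its mean was 4.35 RPKM in control (181 fragments) and 1.945 RPKM in CUMS (82 fragments), which is 2.24-fold lower and a log2 ratio of -1.16 (-1.55 to -0.77). With the most fragments of the 8 genes it had the narrowest interval, which lay below the 1.5-fold limit over its whole length. Of genes with 20 to 263 fragments, 3.68% had a lower log2 ratio. The related forkhead genes Foxj2 and Foxj3, which are expressed widely and are not tied to motile cilia, had log2 ratios of 0.01 and 0.12, on 2087 and 2735 fragments in all.

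Of 14 further regulators of ciliogenesis and centriole amplification, 13 were in the table and 11 had at least 10 fragments. Their median log2 ratio was -0.33, with 8 of 11 below 0, and 2 of 11 were lower by over 1.5 fold. These were Trp73, a p53-family factor upstream of multiciliated cell genes, at 0.5 RPKM in control and 0.195 RPKM in CUMS (39 and 15 fragments), and Myb, with 16 and 6 fragments. Both had under 100 fragments in all. Of all genes, 21.1% with 10 to 99 fragments and 2.4% with 100 or more were lower by over 1.5 fold. At the other end of the list stood Ccno and Ccdc78, which act when the many basal bodies of such a cell form, with log2 ratios of 0.26 (-0.50 to 1.04) and 0.37 (-0.94 to 1.72). The values of Rfx2 and Rfx3, partners of FOXJ1 that are also used outside multiciliated cells, are added although the naming rule did not pick them. Their log2 ratios were -0.21 (78 and 68 fragments) and -0.02 (591 and 587 fragments).

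Promoter windows of RefSeq (250 bases before to 50 bases after the start of transcription, GRCm38.p6) were at hand for 6 of the 8 genes, all but Foxj1 and Rsph1. They were searched on both strands for the forkhead letters TGTTTAC, for the RFX core letters GTTGCC and for the longer RFX palindrome (the X-box), which can contain the core letters. The core letters stood in 3 of the 6 windows, those of Dynlrb2, Ccdc153 and Hydin, and in 12.85% of 17415 windows of genes in the table. The forkhead letters stood in the window of Ak7 and in 2.6% of all windows. The fixed form of the palindrome stood in 0 of the 6 windows and in 0.53% of all. Forms with another spacing or other letters were not searched, so this does not show that the windows lack an X-box. The core letters were thus present both in genes with a lower mean in CUMS (Dynlrb2 and Ccdc153) and in Hydin. The 4 windows with a match are shown because they hold the letters through which these regulators are known to act, with the match in capitals, 5′ to 3′ on the strand of the gene. A match is a string of letters and does not show that a factor binds there.
Dynlrb2, chr8:116504765-116505064, plus strand: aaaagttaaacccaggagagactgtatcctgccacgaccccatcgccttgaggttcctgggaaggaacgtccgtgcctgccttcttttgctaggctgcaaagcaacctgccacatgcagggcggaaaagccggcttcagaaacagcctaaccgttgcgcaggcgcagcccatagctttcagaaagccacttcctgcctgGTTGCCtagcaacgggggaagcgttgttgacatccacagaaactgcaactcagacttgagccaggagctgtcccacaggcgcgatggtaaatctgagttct
Ccdc153, chr9:44240427-44240726, plus strand: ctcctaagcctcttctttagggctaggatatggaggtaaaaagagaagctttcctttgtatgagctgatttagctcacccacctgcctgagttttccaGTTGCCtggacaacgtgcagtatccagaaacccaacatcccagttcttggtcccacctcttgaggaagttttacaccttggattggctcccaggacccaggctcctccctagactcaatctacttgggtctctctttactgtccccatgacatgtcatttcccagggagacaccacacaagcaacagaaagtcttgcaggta
Hydin, chr8:110266727-110267026, plus strand: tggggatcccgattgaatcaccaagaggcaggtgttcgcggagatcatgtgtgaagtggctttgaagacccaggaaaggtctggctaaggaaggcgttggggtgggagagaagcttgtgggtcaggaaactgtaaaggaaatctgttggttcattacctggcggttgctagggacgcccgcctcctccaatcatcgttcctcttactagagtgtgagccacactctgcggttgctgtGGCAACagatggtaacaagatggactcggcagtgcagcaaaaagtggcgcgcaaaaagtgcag
Ak7, chr12:105705732-105706031, plus strand: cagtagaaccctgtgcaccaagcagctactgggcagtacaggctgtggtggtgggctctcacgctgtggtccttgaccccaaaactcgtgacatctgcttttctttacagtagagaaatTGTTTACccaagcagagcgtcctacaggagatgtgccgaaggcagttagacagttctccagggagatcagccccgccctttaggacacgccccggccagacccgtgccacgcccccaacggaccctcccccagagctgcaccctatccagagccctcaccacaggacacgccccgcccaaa
The match began 51 bases before the start of transcription in Dynlrb2, 152 before it in Ccdc153, 13 before it in Hydin, where it lies on the opposite strand, and 131 before it in Ak7.

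Tmem212 and Ccdc153 have little known function beyond their strong and selective expression in ependymal cells, for which they serve as markers. They showed the lowest ratios of the 8 genes. Tmem212 (gene 208613, chromosome 3, 27866066 to 27896368, minus strand), a transmembrane protein gene, stood at 1.64 RPKM in control (18 fragments) and 0.28 RPKM in CUMS (3 fragments). The ratio was 5.86-fold lower, a log2 ratio of -2.55 (-5.00 to -0.82), and the CUMS value was as low as the floor of 3 fragments, which is 0.27 RPKM for a gene of this length. Ccdc153 (gene 270150, chromosome 9, 44240676 to 44247306, plus strand), a coiled-coil protein gene, stood at 1.72 RPKM in control (29 fragments) and 0.48 RPKM in CUMS (8 fragments). It was 3.58-fold lower, with a log2 ratio of -1.84 (-3.21 to -0.70). Among genes with 20 to 263 fragments, 0.371% had a log2 ratio below that of Tmem212 and 1.11% one below that of Ccdc153. Both intervals lay under the 1.5-fold limit, yet few fragments stand behind the CUMS means.

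**Figure D2:**
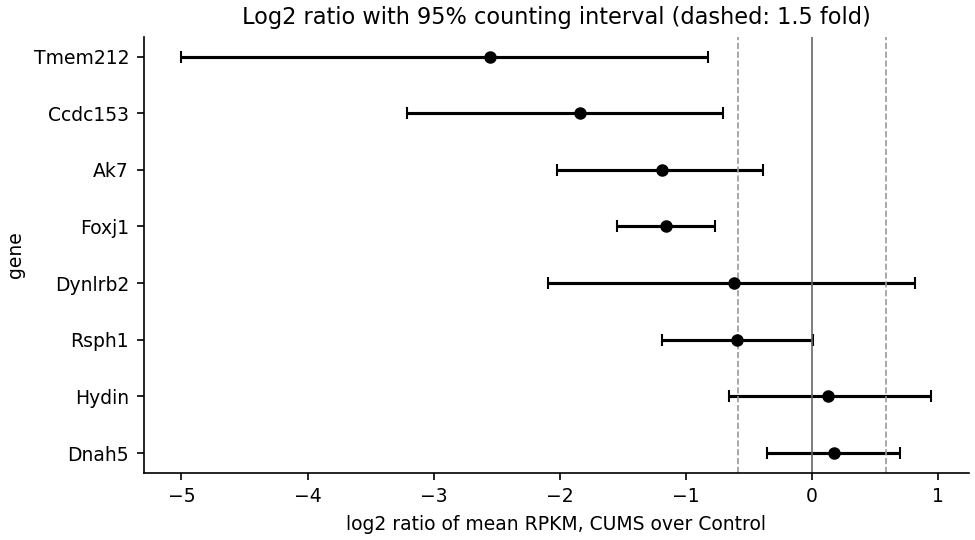
Log2 ratio of mean RPKM, CUMS over control, for each gene (point) with its 95% counting interval (bar). Dashed lines mark 1.5 fold. The intervals of Tmem212, Ccdc153, Ak7 and Foxj1 lie below 0, that of Rsph1 ends at 0.01, and those of Dynlrb2, Hydin and Dnah5 span 0.

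Of the enzymes, Ak7 (gene 78801, chromosome 12, 105705976 to 105782447, plus strand) encodes an adenylate kinase of the axoneme, which passes on phosphate groups between adenine nucleotides where the dyneins use ATP. Its mean was 0.9 RPKM in control (45 fragments) and 0.395 RPKM in CUMS (20 fragments). This was 2.28-fold lower, a log2 ratio of -1.19 (-2.02 to -0.39), close to the ratio of Foxj1. Adenylate kinases of the cytosol and mitochondria, Ak1, Ak3, Ak4 and Ak5, rested on 2566 (Ak4) to 7213 (Ak5) fragments and had log2 ratios from -0.16 (Ak3) to 0.31 (Ak5). The other ciliary member of the family, Ak8, had 32 and 37 fragments and a log2 ratio of 0.19 (-0.52 to 0.93), an interval that spans 0.

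Rsph1 (gene 22092, chromosome 17, 31255019 to 31277383, minus strand) encodes a protein of the radial spoke head. It stood at 3.365 RPKM in control (61 fragments) and 2.235 RPKM in CUMS (41 fragments). The 1.51-fold lower mean just passed the limit of 1.5, and the log2 ratio of -0.59 had a counting interval that reached 0 (-1.19 to 0.01). Of 11 further spoke genes, 9 had at least 10 fragments, with a median log2 ratio of -0.03. The spoke head gene Rsph4a was 1.68-fold lower, at 0.98 and 0.585 RPKM (58 and 35 fragments), with a log2 ratio of -0.74 (-1.39 to -0.11). Ropn1l and Iqub were also lower by over 1.5 fold, on 17 and 42 fragments in all, and their intervals spanned 0. Of all genes with 10 to 99 fragments, 21.1% were lower by over 1.5 fold. The highest ratios were those of Ak8 and of Nme5, at 0.09 (-0.48 to 0.67). Rsph9, a further head gene that the naming rule did not pick, had 207 and 205 fragments and a log2 ratio of -0.03.

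Dynlrb2 (gene 75465, chromosome 8, 116504974 to 116515915, plus strand) encodes a dynein light chain of the roadblock type that is enriched in ciliated cells. Its mean was 1.63 RPKM in control, on 12 fragments, and 1.065 RPKM in CUMS, on 8 fragments. The 1.53-fold lower mean had a log2 ratio of -0.61 with a counting interval from -2.09 to 0.82, and a difference in either direction is not detectable at this depth. Its paralog Dynlrb1, which serves cytoplasmic dynein in all cells, stood at 145 RPKM in control and 138 RPKM in CUMS, with a log2 ratio of -0.07 (-0.18 to 0.03). The pair are similar in sequence, and how reads that match both were handled is known only as far as that uniquely aligned reads were counted.

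The largest proteins of the set gave another picture. Dnah5 (gene 110082, chromosome 15, 28203752 to 28472052, plus strand) encodes a motor heavy chain of the outer dynein arm. It stood at 0.23 RPKM in control (59 fragments) and 0.26 RPKM in CUMS (67 fragments), a log2 ratio of 0.18 (-0.35 to 0.70). Hydin (gene 244653, chromosome 8, 110266977 to 110610253, plus strand), whose product belongs to the central pair apparatus and whose loss causes hydrocephalus in mice, stood at 0.105 RPKM in control (27 fragments) and 0.115 RPKM in CUMS (30 fragments), a log2 ratio of 0.13 (-0.66 to 0.95). Both intervals allow differences of over 1.5 fold upward, and that of Hydin also downward. These are the only genes of the 8 with a length over 10000 bases, and they had the lowest RPKM in both groups. Exons of Hydin share 237 bases with the antisense gene Gm26832, whose reads cannot be told apart from its own where strand was not used. Without Hydin and Dnah5, the log2 ratio of the summed fragments of the other 6 genes was -1.11. Without Foxj1, which holds the most fragments, it was -0.52 over the other 7.

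**Figure D3:**
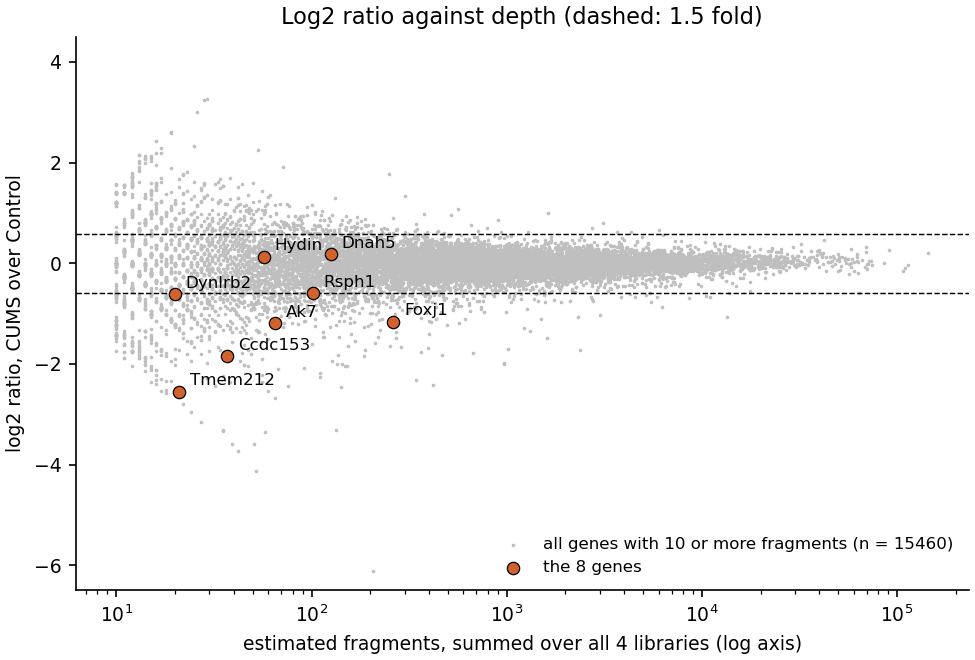
Log2 ratio, CUMS over control, against the estimated fragments summed over all 4 libraries (log axis), for 15460 genes with at least 10 fragments (grey) and for the 8 genes (orange). Dashed lines mark 1.5 fold, and a group under 3 fragments was set to 3. The cloud widens towards low counts, where all 8 genes lie, and Foxj1, Ak7, Ccdc153 and Tmem212 lie towards its lower edge.

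The other axonemal dynein heavy chains numbered 10 with at least 10 fragments, the shortest of them 12272 bases long. Of the 5 with 10 to 99 fragments, 3 were lower in CUMS by over 1.5 fold and 1 was higher, against 21.1% and 16.6% of all genes with that many. Of the 5 with 100 or more fragments, 1 was lower and 0 were higher, against 2.4% and 0.842%. In the outer arm Dnah11 stood at 0.205 and 0.04 RPKM (47 and 9 fragments), a log2 ratio of -2.36 (-3.61 to -1.35). In the inner arm Dnah6 stood at 0.155 and 0.03 RPKM (32 and 6 fragments), with -2.37 (-3.98 to -1.15), and Dnah2 at 0.6 and 0.35 RPKM (135 and 79 fragments), with -0.78 (-1.20 to -0.37). Dnah10 was 1.52-fold lower, with an interval that spanned 0. Dnah8 was the heavy chain that was higher, on 4 and 11 fragments, and its interval spanned 0 (-0.31 to 3.55). Dnah17 had a ratio like that of Dnah5, at 0.16 (-0.35 to 0.69). The other well counted chains, Dnah1, Dnah7b and Dnah9, are named although the naming rule did not pick them. Their log2 ratios were -0.20, -0.23 and 0.08, and each interval spanned 0.

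The other parts of the axoneme were examined by lists of genes with known roles, some of them listed in the table under older symbols such as Dnahc11 and Dnaic1. Of all genes with 10 to 99 fragments, 21.1% were lower by over 1.5 fold and 16.6% higher. With 100 or more fragments these shares were 2.4% and 0.842%. In the outer dynein arm list, 4 of 11 genes were lower by over 1.5 fold and 1 was higher, with a median log2 ratio of -0.20. The intermediate chains Dnai1 and Dnai2 were 1.68-fold and 1.84-fold lower, on 53 and 32 and on 38 and 21 fragments, and the docking protein gene Ccdc114 was 1.58-fold lower, on 61 and 39 fragments. Each of these 3 intervals lay below 0. In the inner dynein arm list 4 of 8 genes were lower and 0 were higher, and the median was -0.42. Only Dnah1 and Wdr78 of this list had an average of at least 0.5 RPKM. Of these, 0 were lower by over 1.5 fold, and the median was -0.08. Dnah2, which had 135 and 79 fragments, fell under this limit because RPKM is scaled to gene length. Over all genes of the list that were found, with no fragment limit, the median was -0.60. The light intermediate chain Dnali1 had the lowest ratio, with 0.81 RPKM in control and 0.15 RPKM in CUMS (27 and 5 fragments) and a log2 ratio of -2.43 (-4.18 to -1.05). At the upper end stood Wdr78, at 0.04, and Dnah7a, at 0.47 (-0.47 to 1.42).

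The factors that assemble dynein arms in the cytoplasm had a median of 0.09. Of 10 genes, 1 was lower by over 1.5 fold, Dnaaf1, at 1.455 and 0.955 RPKM (66 and 44 fragments), with a log2 ratio of -0.61 (-1.18 to -0.02). Zmynd10 was the next lowest, at -0.15, and Dnaaf3 and Pih1d2 were the highest, at 0.34 and 0.56, with intervals that spanned 0. In the central pair list, to which Hydin belongs by function, 0 of 7 genes passed the limit in either direction and the median was -0.05. Spef1 was the lowest of them, at 5.92 and 4.115 RPKM (214 and 150 fragments), with a log2 ratio of -0.52 (-0.84 to -0.22). Wdr96 stood at -0.32, and Spag16 and Cfap46 were the highest, at 0.14 and 0.52. In the list of the nexin link and of the proteins that set the spacing along the doublet, 1 of 9 genes was lower by over 1.5 fold, Ccdc40, at 0.64 and 0.365 RPKM (52 and 30 fragments), with a log2 ratio of -0.81 (-1.50 to -0.13). Its partner Ccdc39 stood at -0.22 (-0.56 to 0.12), and Gas8 and Ccdc65 were the highest, at 0.24 and 0.25. The shares of all genes lower by over 1.5 fold were 21.1% with 10 to 99 fragments and 2.4% with 100 or more.

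Among proteins of the microtubule doublets, 5 of 16 genes were lower and 2 were higher, and the median was -0.03. Most of the 16 had 10 to 99 fragments, where 21.1% of all genes were lower by over 1.5 fold and 16.6% higher. The tektin gene Tekt4 had the lowest ratio, with 19 and 5 fragments and a log2 ratio of -1.94 (-3.71 to -0.47), followed by Mns1, at -1.15 (-2.25 to -0.09). Another tektin gene, Tekt1, was at the opposite end, with 15 and 26 fragments and a log2 ratio of 0.78 (-0.19 to 1.80), next to Efhc2, at 0.69 (-0.32 to 1.78). Further markers of ependymal cells were likewise spread to both sides. Of 18 with at least 10 fragments, most of them again with 10 to 99, 6 were lower and 3 higher by over 1.5 fold, and the median was -0.40. Over those with an average of at least 0.5 RPKM, 2 were lower and the median was -0.07. Stoml3 had 10 fragments in control and 1 in CUMS, and Odf3b had 13 and 4. Pifo stood higher in CUMS, at 0.49 and 1.185 RPKM (7 and 17 fragments), and so did 1700016K19Rik, with 18 and 38 fragments and a log2 ratio of 1.06 (0.22 to 1.96).

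**Figure D4:**
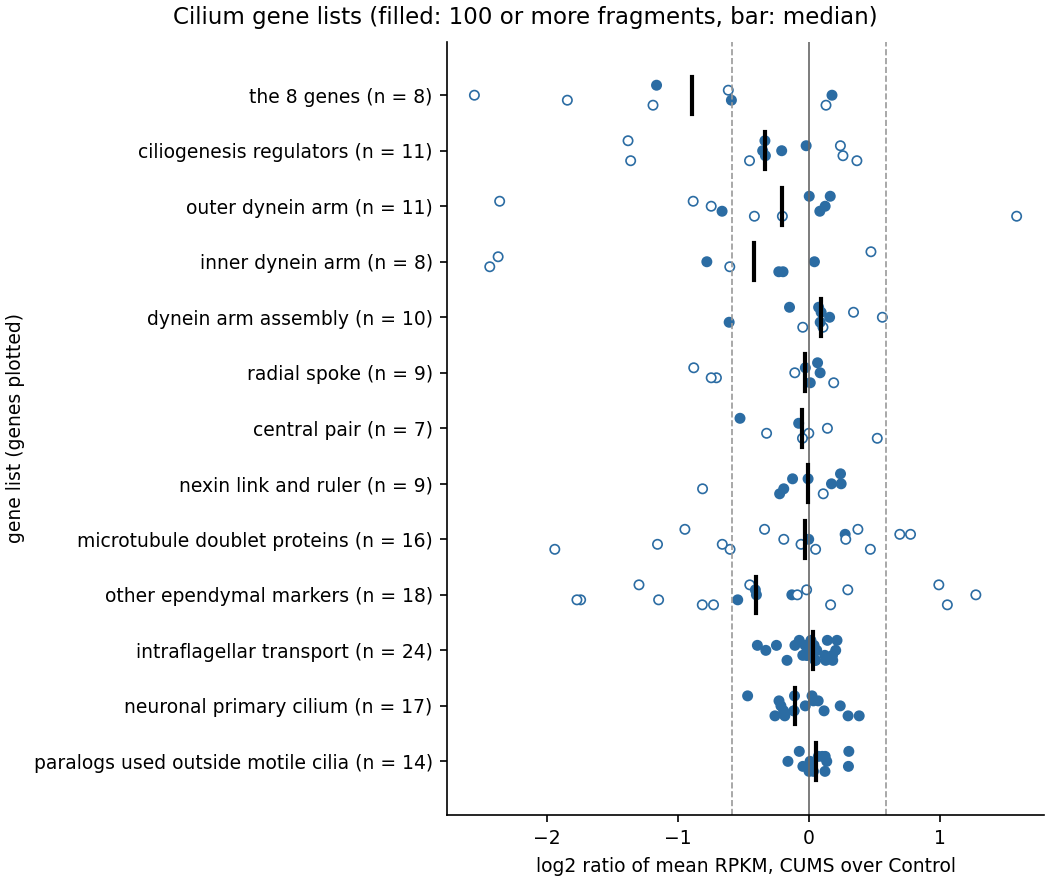
Log2 ratio, CUMS over control, of each gene with at least 10 fragments (points, filled from 100 fragments up) in the 8 genes and in 12 lists of cilium genes and paralogs. Black bars mark list medians and dashed lines 1.5 fold, and a group under 3 fragments was set to 3. The points of motile cilium lists reach far to the left, most of them open, whereas transport, primary cilium and paralog genes stay within the dashed lines.

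Over these 9 lists of motile cilium and ependymal genes, 99 of 119 genes had at least 10 fragments. Of these, 26 were lower in CUMS by over 1.5 fold and 6 were higher. The lower genes were mostly those with few fragments. Of 60 genes with 10 to 99 fragments, 23 were lower, which is 38.3%, against 21.1% of all genes with that many, and 6 were higher, against 16.6% of all genes. Their intervals lay below 0 in 12 cases and above 0 in 2, where 7.27% and 5.2% of all genes with that many did so. Of 39 genes with 100 or more fragments, 3 were lower, which is 7.69%, against 2.4% of all genes with that many, and 0 were higher, against 0.842%. Here 8 intervals lay below 0 and 1 above, where 2370 and 1755 of all 12477 genes with that many did so, a share of genes below 0 close to that of the list. The median log2 ratio of the 99 genes was -0.09, far from the -0.89 of the 8 genes. Both the 8 genes and the lists were chosen with earlier results of these data known, so this contrast may partly reflect the choice. Some of the better counted genes in these lists, such as Rfx3, are also expressed in cells without motile cilia.

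Genes of cilia in general, of neuronal primary cilia and of the paralogs were all well counted. In intraflagellar transport, which carries cargo along all cilia, 0 of 24 genes passed the limit in either direction, the log2 ratios ran from -0.39 (Ift43) to 0.22 (Ift81), and the median was 0.03. In genes of the primary cilium of neurons 0 of 17 passed it, from -0.47 (Gpr161) to 0.38 (Sstr3), with a median of -0.11. In the paralogs used outside motile cilia 0 of 14 passed it, and the median was 0.05. The genes of these 3 lists had 135 (Gpr161) or more fragments, more than 7 of the 8 genes. Since 2.4% of all genes with 100 or more fragments were lower and 0.842% higher, counts of 0 in lists of this size do not set them apart from other genes.

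Markers of cell types near the ependyma and of the cortex itself were counted in the same way. Of all genes with 10 to 99 fragments, 21.1% were lower by over 1.5 fold and 16.6% higher. With 100 or more fragments these shares were 2.4% and 0.842%. Most choroid plexus genes counted here fell in the first range, and most genes of each other list in the second. In choroid plexus genes 6 of 9 were lower by over 1.5 fold and the median was -1.22, while their summed levels in control and CUMS were 46.9 and 46.0 RPKM. Most of that level was Enpp2, which other cells also express, and without it the sums were 6.86 and 3.16 RPKM. Of the genes with under 10 fragments, Ttr, the defining gene of that tissue, had 1 fragment in control and 0 in CUMS, while Kcnj13 had 0 and 9 and Kcne2 had 0 and 4. Neuroblast and progenitor genes of the subventricular zone, which lies under the ependyma, were lower in 6 of 13 cases, and their median was -0.44. Tanycyte genes were lower in 1 of 7 cases, and their median was 0.08. Most of their summed level was Crym, with 133 of 145 RPKM in control and 142 of 155 RPKM in CUMS. How far the genes of this list reflect tanycytes in these samples was not tested. Genes of septal and hypothalamic neurons, regions that flank ventricles, were lower in 10 of 11 cases, and their median was -1.72. Of this list, Zic1, Nts, Magel2, Prkcd, Ngfr, Dlk1, Peg10 and Baiap3 are ones that the study lists as lowered. So are Mbp, Mobp and Cldn11 of the oligodendrocyte list, and the counts and levels of both lists are no independent evidence. Of the septal and hypothalamic genes with under 10 fragments, Oxt had 8 in control and 1 in CUMS. Avp had 1 and 1, Hcrt 2 and 4, and Agrp 0 and 6. Striatal neuron genes were below 0 in 10 of 10 cases, 1 of them by over 1.5 fold, and their median was -0.30. Mature oligodendrocyte genes, each with over 100 fragments, were lower in 4 of 10 cases, against the 2.4% of all genes with that many, and their median was -0.50. Astrocyte genes (-0.08, 1 of 10 lower) and vascular and meningeal genes (-0.06, 1 of 12 lower and 1 higher) stayed near 0, and excitatory neuron genes of the neocortex had a median of 0.31, with 10 of 10 above 0 and 0 past the limit. The summed level of the 8 genes was 13.9 RPKM in control and 6.78 in CUMS. That of the septal and hypothalamic list was 109.8 and 35.7 RPKM, and that of the subventricular list 69.5 and 49.4 RPKM, in the same order. Whether the samples held septal, hypothalamic or subventricular RNA, and what part it had in the values of the 8 genes, was not tested.

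**Figure D5:**
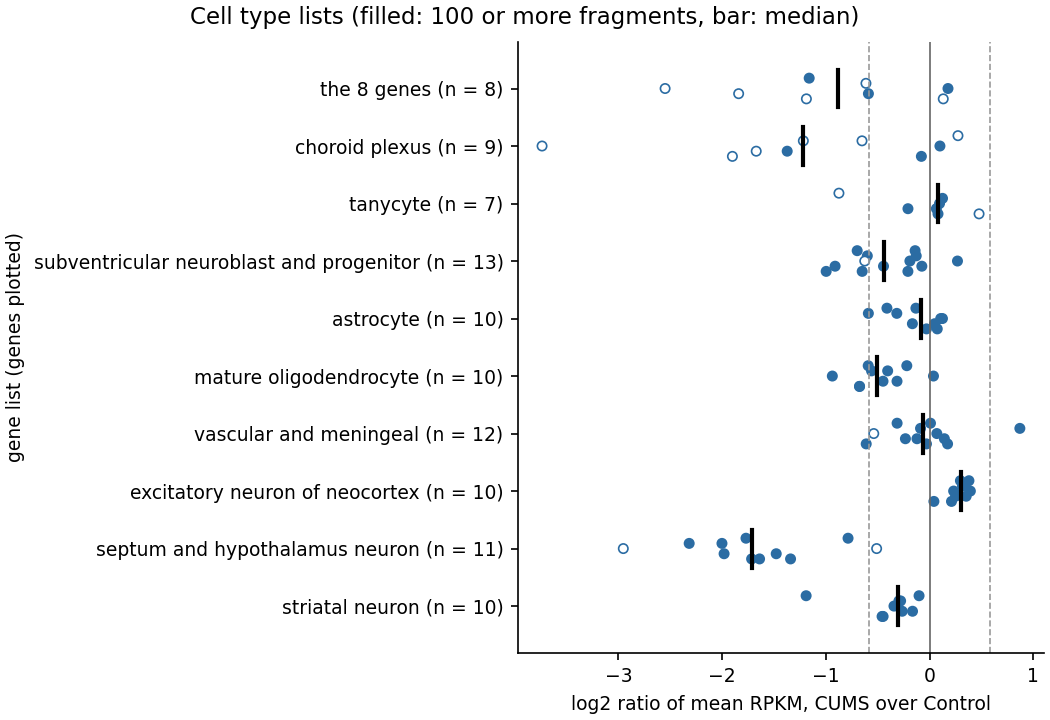
Log2 ratio, CUMS over control, of each gene with at least 10 fragments (points, filled from 100 fragments up) in the 8 genes and in 9 lists of cell type markers. Black bars mark list medians and dashed lines 1.5 fold, and a group under 3 fragments was set to 3. The medians of the choroid plexus and of the septal and hypothalamic lists lie left of that of the 8 genes, and the excitatory neuron list lies right of 0.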

How the data were processed

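Poly(A) RNA of the mPFC was sequenced in 2 control and 2 CUMS libraries. Per the study's methods and the submitters' processing notes, the authors trimmed the paired reads with SolexaQA, aligned them to mm10 with TopHat 1.0.12 and Bowtie 0.11.3 and counted uniquely aligned reads. Which annotation they counted on, and whether by strand, is not given in the sources used here. The authors deposited RPKM, averaged over the libraries of a group, with the gene length they used. They also deposited their own log2 ratio and a NOISeq probability, a fraction from 0 to 1. Neither was used, because both are the authors' own comparison.

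The 63.4 (control) and 63.3 (CUMS) bases taken off the lengths were those that made RPKM times length sum to 1000000000 in each group. This sum is set by construction and assumes that the scaling counted only reads of the listed genes. The median value of single fragments (577 and 609 genes) then gave 60.81 and 60.33 RPKM x bases per fragment, and from this the depth. Fragment numbers of low values in genes under 1000 bases lay within 0.15 of a whole number in 92.8% and 94.2% of cases, where evenly spread values would give 30%. A value listed at 0.01 stood for 0. The depth estimate was tested only on data simulated at depths close to it. Single fragments were also sought only within a fixed range of values, so the simulation does not bear on a much larger depth. Ratios were taken between group means, and a group under 3 fragments was set to 3 fragments. Clopper-Pearson intervals of ratios and exact Poisson intervals of levels, both at 95%, cover counting error only. The labels number 2 libraries a group, but no value per library was at hand, so no test was run and no p-value is given.

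The 8 genes and 21 further lists (266 of 276 genes found) were chosen with earlier results of these data known. All 8 genes were named. From each list of cilium genes and paralogs, the pair of highest and the pair of lowest ratios among genes with at least 10 fragments were eligible, and those past 1.5 fold where they were 6 or fewer. Lists of other cell types are given by counts. Coordinates are GENCODE M21 gene spans. Alternatives were other scalings, pseudocounts, filters, fold limits and depths. Analyses used Python 3.11.15, pandas 2.3.3 and scipy 1.17.1.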

Additional observations from a re-analysis of the deposited data

How the results depend on the processing

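No paired analysis was possible because values of single libraries were not analysed here, only the authors' means, and for the same reason no fit without each replicate in turn was run. The planned comparison of protein sequences was not run.

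The median log2 ratio of the 8 genes, -0.89, was -0.44 on the log2(RPKM + 1) scale, which by its construction draws low levels towards 0, and -1.17 over the 6 genes with an average of at least 0.5 RPKM. Those 6 are also the genes left without Hydin and Dnah5, an alternative chosen after seeing the data, which gave the same -1.17. The number of genes lower by over 1.5 fold, 6, was 3 on the log2(RPKM + 1) scale. It was 4 with a pseudocount of 0.1 and with a fold limit of 2, and 5 with CUMS scaled so that the median gene had a ratio of 1. The log2 ratio of the summed fragments, -0.75, was -0.52 without Foxj1 and -1.11 without Hydin and Dnah5. None of the 8 single ratios changed sign under the other scalings and pseudocounts. The number of intervals below 0, 4, was 5 if each library held 2 times the estimated fragments, a direction to keep in mind because the study states more reads than the estimate gives.

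The share of genes lower by over 1.5 fold, 3.8%, was 6.13% over all genes, 15.3% over genes with an average in the range of the 8 genes and 13.8% over genes with fragments in their range, the last chosen after seeing the data. The share of higher genes, 2.15%, was 4.21%, 11.5% and 9.31% in the same order. Of the list medians, that of the radial spoke list turned from -0.03 to 0.0112 over genes with an average of at least 0.5 RPKM. Under the same filter the median and the number of lower genes went from -0.42 and 4 to -0.08 and 0 in the inner dynein arm list, from -0.40 and 6 to -0.07 and 2 in other ependymal markers, and from -1.22 and 6 to -0.73 and 2 in the choroid plexus list. In the inner dynein arm list this filter left only Dnah1 and Wdr78. The number of lower ciliogenesis regulators went from 2 to 0, that of microtubule doublet genes from 5 to 3 and that of tanycyte genes from 1 to 0, while the median of the outer dynein arm list went from -0.20 to -0.43. Without Enpp2, left out after seeing the data, the summed log2 ratio of choroid plexus genes went from -0.04 to -1.12.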
